A study of Rattus norvegicus with 48 samples.

Results

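The response of young LCR muscle to a single run to exhaustion was measured on 12 microarrays, 6 from exhausted and 6 from rested young LCR rats, out of 48 in the series. The abbreviations, which the labels do not spell out, usually stand for low (LCR) and high (HCR) capacity runners, rat lines selected over generations for how far they run. The 12 arrays were taken by their labels, with no measured value used in the choice. All RNA came from the extensor digitorum longus, a muscle of fast fibres in the lower leg, and the array titles carry animal numbers, of which none is on more than 1 array. The labels give the age as young or old, not in weeks or months, and they do not state the sex, the protocol of the run or the time from its end to sampling. For comparison served the 6 exhausted and 6 rested young HCR rats and the 6 exhausted and 6 rested old LCR rats. Of these, young HCR rest replicate 6, has 2 animals in its title.

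A hard run activates calcium, cAMP and stress-activated kinase signalling in muscle fibres and in the cells around them, and these pathways switch on immediate early genes within minutes, without new protein synthesis. The products are transcription factors of the AP-1, EGR, NR4A and KLF families and inhibitors that end the same signals, such as kinase phosphatases and proteins that destroy short-lived mRNAs. In the hours that follow, genes of fuel use, protein turnover and mitochondrial growth usually respond. An exhausting run also raises circulating glucocorticoids, whose receptor acts on a set of metabolic genes together with FoxO factors.

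Values are log2 probe set summaries, 1 gene per probe set, and 9558 genes bright enough were tested. Fast fibre markers were at a mean of 12.9 to 13.1 on every array, against array upper quartiles of 6.43 to 6.55, as the labelled muscle has. Exhausted replicate 1 stood apart: it correlated with the other exhausted arrays at 0.971 to 0.976 and had a limma quality weight of 0.548, the lowest of the 12. It was kept, and the calls of named genes that were lost without it are given below. Markers of liver, that is, mRNAs of plasma proteins, averaged between 3.82 and 6.61 on single arrays and were unevenly spread within both groups.

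After the run, 76 genes were higher and 14 lower in young LCR muscle at a limma adjusted p below 0.05, which is 0.795% and 0.146% of the genes tested. At an unadjusted p below 0.05 the numbers were 582 and 526. The median change of all genes was -0.014 on the log2 scale. Of the rises 14 reached 2-fold, and 34 reached 1.5-fold. None of the falls reached 2-fold, and 2 reached 1.5-fold. In 84 genes (0.879%) all 6 exhausted arrays lay above all 6 rest arrays, and in 51 (0.534%) all lay below; 44 of the 76 rises and 7 of the 14 falls were among these. Since whole muscle was measured, fewer cells of a type and less RNA per cell cannot be told apart. The counts were sensitive to single arrays. Without exhausted replicate 1 they were 48 and 8, without exhausted replicate 2 the rises numbered 37 and without exhausted replicate 6 they numbered 49. Without rest replicate 1 there were 122 rises, without rest replicate 2 there were 48 rises and 4 falls, and without rest replicate 5 there were 40 rises. The number of falls was 7 to 9 with any single one of exhausted replicates 2, 3, 4 and 6 or rest replicates 3, 4 and 5 left out. Of the 90 calls, 31 rises and 3 falls were made in all 12 fits that left out 1 young LCR array. A fit of the 12 young LCR arrays alone called 36 higher and 5 lower, and limma's array quality weights gave 131 and 55. The 12-array fit kept 30 of the 76 rises and 5 of the 14 falls. Among the named rises it lost Ccn1, Klf6, Ddit4, Ccn2, Gadd45g, Ier2, Arrdc3, Klf15, Adamts1, Pkm, Irf2bpl, Larp1, Mknk2, Rhoc and Diaph1. The falls that it kept were those of Tfrc, Hacd1, Tmem19, C8g and Mterf1-ps1.

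The largest rise was that of Fos, a subunit of the AP-1 transcription factor. Rest arrays measured 5.68 to 7.23 (median 6.21) and exhausted arrays 7.39 to 9.60 (median 8.78) on the log2 scale, so that the groups did not overlap. The change was 2.31 ± 0.44 (SE, n = 6 and 6; 95% interval 1.42 to 3.19; 4.94-fold; limma adjusted p = 0.00239). Junb, another AP-1 subunit, lay at 3.96 to 5.04 (median 4.43) at rest and at 5.12 to 6.70 (median 6.13) after the run, again with no overlap. The rest median was below 4.54, the level that a gene had to pass on at least 6 arrays to be tested. Junb rose by 1.63 ± 0.26 (3.11-fold, adjusted p = 0.000187). Jund, another partner in AP-1 that is present before stimulation in most cells, was at 5.90 to 6.58 (median 6.22) and at 6.52 to 7.26 (median 6.91), with overlap at the edge, and rose by 0.67 ± 0.15 (adjusted p = 0.0123, and 0.0602 without rest replicate 5). Its call was also lost when the mean of its probe sets replaced the brightest one.

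These were 3 of 9 AP-1 genes tested that rose; none fell, and the median change of the 9 was 0.67. Atf3, a stress-induced factor of the same leucine zipper class, changed by 1.16 ± 0.35, a larger value than that of Jund, but did not pass (adjusted p = 0.115). Fosb changed by 0.74 ± 0.25 and Jun by 0.34 ± 0.13, neither past the threshold. The small MAF proteins Maff and Mafk changed by 0.36 and 0.18 and Batf, an AP-1 member of immune cells, by -0.13. Over the 9 genes the mean level was 5.84 to 6.20 on rest arrays and 6.28 to 7.16 on exhausted ones.

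Of 15 genes of the EGR, NR4A and KLF families and their neighbours among early factors, 7 rose and none fell, with a median change of 0.69 and every change above 0. Egr1, a zinc finger factor induced by growth factor and stretch signals, lay at 6.07 to 8.62 (median 6.79) at rest and at 8.39 to 9.75 (median 9.19) after the run. It rose by 2.10 ± 0.39 (4.28-fold, adjusted p = 0.00157), although rest replicate 4 reached into the exhausted range. Nr4a2, an orphan nuclear receptor that needs no ligand, was at 6.58 to 7.99 (median 7.04) and at 8.26 to 9.43 (median 9.14) and rose by 1.79 ± 0.34 (3.45-fold, adjusted p = 0.00252). Its relative Nr4a1 moved by less but with little spread after the run: 9.59 to 10.21 (median 9.79) at rest against 10.76 to 10.90 (median 10.82) after the run. That is a rise of 0.99 ± 0.18 (adjusted p = 0.00112), with a gap between the groups wider than the whole exhausted range.

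Klf2, which blood flow induces in endothelium, was at 5.77 to 7.13 (median 6.67) at rest and at 7.45 to 8.29 (median 7.93) after the run, a rise of 1.34 ± 0.22 (adjusted p = 0.000282). Klf4 was at 6.26 to 7.02 (median 6.69) and at 7.54 to 8.52 (median 7.97), a rise of 1.31 ± 0.19 (adjusted p = 7.52e-05). Neither gene's groups overlapped. Klf6 rose by 0.64 ± 0.13 (adjusted p = 0.00412) and Hes1, a repressor downstream of Notch, by 0.82 ± 0.16 (adjusted p = 0.00252). Among the 8 that did not pass, Klf10, a factor induced by TGF-beta, came closest at 0.79 ± 0.21 (adjusted p = 0.056) and passed without exhausted replicate 1, at 0.94 (adjusted p = 0.0205). Csrnp1 changed by 0.69, Egr2 by 0.47 and Myc by 0.45. Srf, the factor that binds CArG boxes in early gene promoters, changed by 0.19 ± 0.09 (adjusted p = 0.411).

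**Figure D1:**
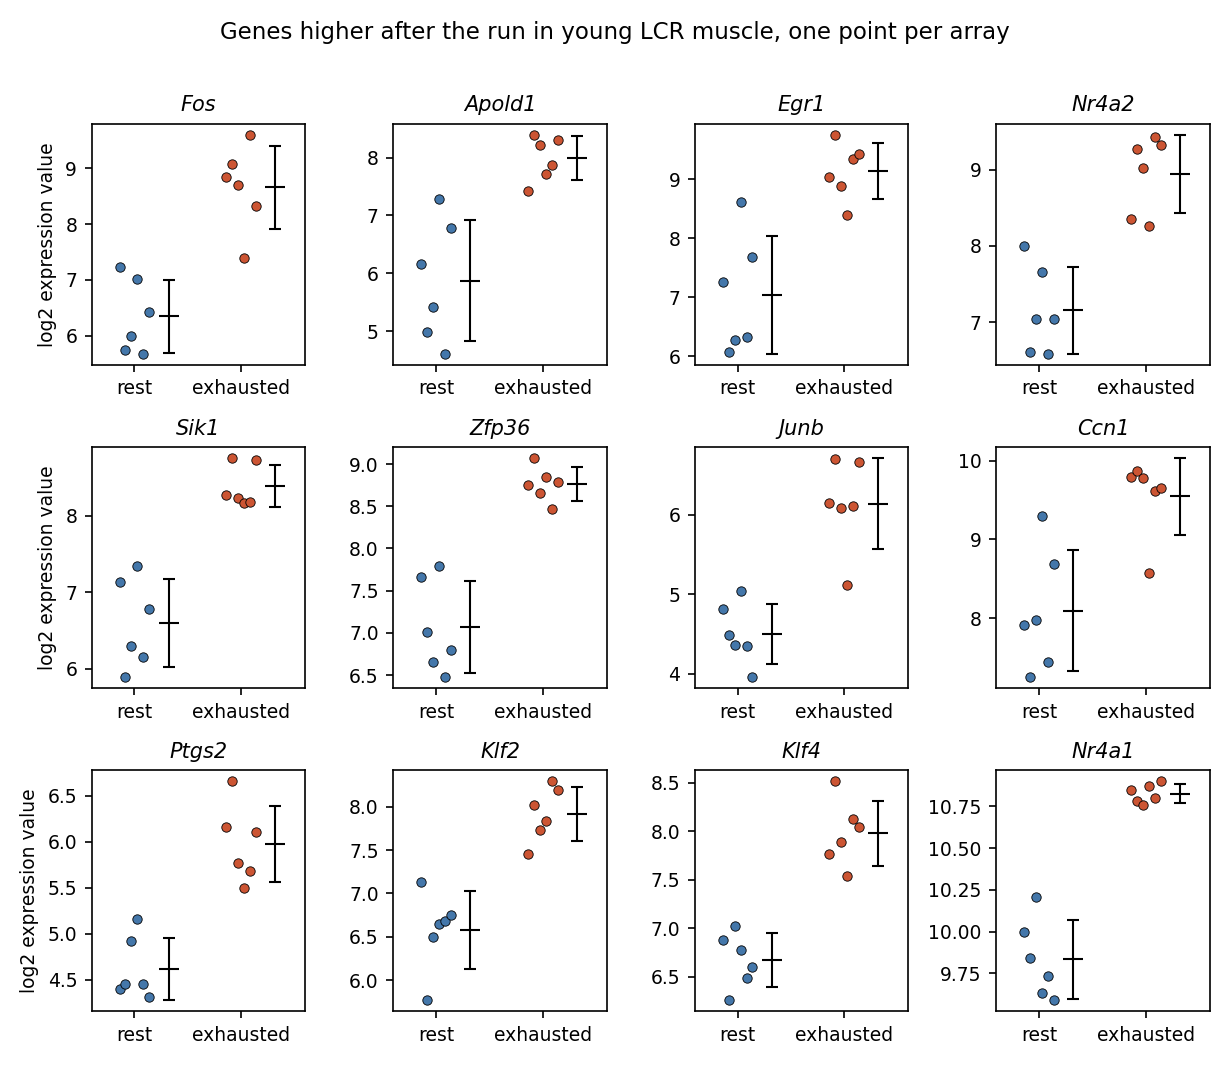
Each panel shows 1 gene in young LCR muscle, with the log2 expression value on the vertical axis (scales differ between panels), 1 point per array (6 at rest in blue, 6 exhausted in red) and, to the right of the points, the mean with its SD. Every exhausted point lies above every rest point in 10 of the 12 genes; in Egr1 and Ccn1 the highest rest arrays reach into the exhausted range.

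The promoters of 3 of the genes with the largest rises are shown because they hold, within 300 bases, sequences through which such signals are known to act: CArG boxes, bound by serum response factor, and the letters TGACG, the core of the cAMP response element bound by CREB and ATF factors. They are those of the 6 largest rises with a promoter entry that hold a CArG box or more than 1 match to TGACG. Sequences run 5′ to 3′ along the gene, around the annotated start, with most of the bases before it, in RefSeq's GRCr8 assembly, and capitals mark these matches, where CGTCA is TGACG read on the opposite strand. Egr1 lies at chr18:26736828-26737127 on the plus strand and holds 2 CArG boxes and 2 matches to TGACG. Zfp36 lies at chr1:92799059-92799358 on the minus strand and holds 1 CArG box. Sik1 lies at chr20:9958597-9958896 on the minus strand and holds 2 matches to TGACG.
Egr1: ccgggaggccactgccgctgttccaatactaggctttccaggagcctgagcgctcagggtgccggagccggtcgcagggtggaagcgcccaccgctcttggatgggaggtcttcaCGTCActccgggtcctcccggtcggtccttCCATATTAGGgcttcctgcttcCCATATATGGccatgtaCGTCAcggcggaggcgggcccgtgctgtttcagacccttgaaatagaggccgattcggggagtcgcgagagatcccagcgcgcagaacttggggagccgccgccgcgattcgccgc
Zfp36: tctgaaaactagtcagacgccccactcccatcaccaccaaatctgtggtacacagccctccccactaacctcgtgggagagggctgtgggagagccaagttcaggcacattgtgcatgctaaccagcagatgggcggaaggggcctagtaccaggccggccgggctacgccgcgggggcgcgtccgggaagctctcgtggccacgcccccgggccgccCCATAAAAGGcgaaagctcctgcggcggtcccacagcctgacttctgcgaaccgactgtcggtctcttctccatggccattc
Sik1: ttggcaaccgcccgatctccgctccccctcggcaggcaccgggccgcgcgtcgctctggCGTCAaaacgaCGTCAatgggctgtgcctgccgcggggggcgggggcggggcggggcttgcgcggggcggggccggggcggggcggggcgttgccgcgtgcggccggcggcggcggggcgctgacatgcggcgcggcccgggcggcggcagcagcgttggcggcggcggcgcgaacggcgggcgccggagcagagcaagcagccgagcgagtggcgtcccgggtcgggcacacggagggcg

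Of the 76 genes that rose, 67 had a promoter in the RefSeq table, the first listed for each gene, as had 7808 of the 9558 tested. TGACG was present on either strand in 31 of the 67 (46.3%), against 30.0% of the promoters of all genes tested and 22% of all 27457 promoters. The full element TGACGTCA, which contains TGACG, was in 5 (7.46%, against 2.88% of the genes tested), those of Ier2, Dusp1, Jund, Rnf44 and Irf2bpl, the last pair named after their values were seen. A CArG box was in 4 (5.97%, against 1.28%), those of Egr1, Zfp36, Klf6 and Dusp5. The heat shock element core GAANNTTC was in 5.97% against 6.02%, the FoxO motif TGTTTAC in 1.49% against 2.41% and the glucocorticoid element core ACANNNTGT in 2.99% against 4.05%, each searched on both strands. Of the 14 genes that fell 11 had a promoter, and 5 of these (45.5%) held TGACG, a share close to the 46.3% of the rises. Such matches describe the letters in this window.

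In a list of 30 early genes, most of which act as feedback on the same signals, 9 rose and none fell, with a median change of 0.28. Sik1, a kinase that cAMP signalling induces and that keeps the CREB coactivators out of the nucleus, was at 5.89 to 7.35 (median 6.54) at rest and at 8.17 to 8.75 (median 8.25) after the run. It rose by 1.79 ± 0.27 (3.45-fold, adjusted p = 7.52e-05). Zfp36, which binds AU-rich mRNAs and speeds their decay, was at 6.48 to 7.79 (median 6.91) and at 8.46 to 9.07 (median 8.77). It rose by 1.70 ± 0.21 (3.24-fold) and had an adjusted p of 2.62e-06 by limma. In both genes the lowest exhausted array lay clear of the highest rest array.

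Errfi1, an inhibitor of the EGF receptor, was at 8.79 to 9.67 (median 9.32) at rest and at 9.82 to 10.69 (median 10.19) after the run, a rise of 0.98 ± 0.19 (adjusted p = 0.00331). Dusp1, a phosphatase that switches off stress-activated kinases, was at 9.19 to 10.08 (median 9.77) and at 10.33 to 10.86 (median 10.62), a rise of 0.94 ± 0.18 (adjusted p = 0.0026). Neither overlapped. Ier2, an early nuclear protein, rose by 1.08 ± 0.27 with overlapping groups (adjusted p = 0.0305), Gadd45g, an activator of stress kinases, by 0.84 ± 0.19 (adjusted p = 0.0113), Dusp5, a phosphatase of ERK, by 0.55 ± 0.12 (adjusted p = 0.0123) and Zfp36l1, a relative of Zfp36, by 0.50 ± 0.12 (adjusted p = 0.0237). Zfp36l1 and Dusp5 were named after their values were seen. The calls of Ier2 and Zfp36l1 were each lost in 7 of the 12 fits that left out a single young LCR array, with an adjusted p of up to 0.125 and 0.0786, and that of Gadd45g without exhausted replicate 2 or rest replicate 5 (adjusted p up to 0.0667). With each array left out in turn, the list had between 6 and 9 members higher.

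Genes of blood vessels and hypoxia had 4 of 28 members higher and none lower, with a median change of 0.065 on the log2 scale. Apold1, a gene that endothelial cells switch on early under stress, was at 4.61 to 7.29 (median 5.79) at rest and at 7.42 to 8.39 (median 8.05) after the run. It rose by 2.12 ± 0.34 (4.34-fold, adjusted p = 0.000282), with a widely spread rest group and no overlap. Ccn1, a matricellular protein that stretch and YAP signalling induce, was at 7.25 to 9.30 (median 7.95) and at 8.57 to 9.87 (median 9.72), overlapping through rest replicates 4 and 6 and exhausted replicate 4. It rose by 1.45 ± 0.29 (2.74-fold, adjusted p = 0.00384). Ccn2, of the same family, rose by 0.76 ± 0.16 (adjusted p = 0.0108); without exhausted replicate 1 the change was 0.58 and the adjusted p 0.056. Adamts1, a protease that curbs vessel growth, rose by 0.49 ± 0.12 (adjusted p = 0.0402), a call that 9 of the 12 left-out fits did not keep (adjusted p up to 0.14). Of 9 endothelial markers none was called, their median change was 0.024, and their mean level was 7.27 to 7.52 at rest and 7.28 to 7.52 after the run. Of the 9 changes 5 were above 0. Tie1, the lowest, changed by -0.38 (limma adjusted p = 0.0637). It was called lower in 1 of the 12 left-out fits and in 4 of 9 other settings of the processing.

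Of 18 targets of glucocorticoids and FoxO factors 4 rose and none fell, and 16 of the 18 changes were above 0, with a median of 0.30. Ddit4, an inhibitor of mTORC1 that energy stress and glucocorticoids induce, was at 5.60 to 6.93 (median 6.63) at rest and at 6.95 to 8.53 (median 7.73) after the run, a rise of 1.24 ± 0.28 (2.37-fold, adjusted p = 0.0162). Per1, a clock gene with a glucocorticoid-responsive promoter, was at 6.35 to 7.50 (median 6.91) and at 7.68 to 8.37 (median 7.99), a rise of 1.09 ± 0.26 (adjusted p = 0.0257). In both genes the groups met closely without overlapping. Arrdc3, an arrestin-domain protein, rose by 0.73 ± 0.17 (adjusted p = 0.0261) and Klf15, a regulator of amino acid and lipid use, by 0.40 ± 0.10 (adjusted p = 0.0359).

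Each of these calls was lost in some of the 12 left-out fits. That of Ddit4 was lost without exhausted replicate 1, exhausted replicate 4 or rest replicate 5 (adjusted p up to 0.081), and that of Per1 in 5 of the 12 fits (up to 0.0935). The calls of Arrdc3 and Klf15 were each lost in 8 of 12 (up to 0.0917 and 0.116). With 1 array left out the list had 0 to 4 members higher and a median of 0.26 to 0.43: none was higher without exhausted replicate 4 or rest replicate 5, and 1 without exhausted replicate 1 or 2. Irs2, an insulin receptor substrate, changed by 0.50 ± 0.19 (adjusted p = 0.263). Trim63 and Fbxo32, the ubiquitin ligases of muscle wasting, changed by 0.14 and 0.10, and Pdk4, which blocks glucose oxidation, by 0.30 ± 0.37, none past the threshold; these 3 were chosen as textbook targets after their values were seen. Pdk4 had overlapping ranges of 8.94 to 11.32 at rest and 9.48 to 11.66 after the run. Per1 was the sole gene called among 11 of the circadian clock.

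Of 15 genes of inflammatory signalling 2 rose and none fell, with a median of 0.17. Ptgs2, the inducible cyclooxygenase that makes prostaglandins, was at 4.32 to 5.16 (median 4.46) at rest and at 5.50 to 6.66 (median 5.93) after the run. It rose by 1.36 ± 0.20 (2.56-fold, adjusted p = 7.52e-05) without overlap. Nfkbia, the inhibitor that NF-kappaB itself induces, was at 7.26 to 7.87 (median 7.54) and at 8.01 to 8.64 (median 8.22) and rose by 0.73 ± 0.15 (adjusted p = 0.00489). Both calls held in every fit with an array left out. No member of the 18 myokines, cytokines and chemokines tested passed; Il18, a cytokine processed by inflammasomes, changed by 0.65 ± 0.18 (adjusted p = 0.0652) and Metrnl by -0.27 ± 0.10 (adjusted p = 0.217). Macrophage markers had a median change of 0.25 over 10 genes, and of 0.16 without exhausted replicate 1, with none called, and neutrophil markers could be followed by 1 gene, Ncf1, alone.

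A list of heat shock proteins and their partners had none of 26 called and a median of 0.11. With 1 array left out up to 2 were called higher. Sgta, a co-chaperone outside this list, rose by 0.48 (limma adjusted p = 0.00138) and is given under other observations. Hspb7, a small heat shock protein of heart and muscle, changed by 0.95 ± 0.26 (adjusted p = 0.0661), from 8.21 to 9.80 (median 9.22) at rest to 9.39 to 11.44 (median 9.92) after the run. Hspb1, which protects the actin cytoskeleton, changed by 0.56 ± 0.16 (adjusted p = 0.0796). The ranges of Hspb7 overlapped. Of 17 genes of the unfolded protein and integrated stress response none was called. Ppp1r15a, which reverses the block of translation, changed by 0.45 ± 0.14 (adjusted p = 0.123) with exhausted arrays at 7.18 to 7.44 above rest arrays at 6.57 to 7.04.

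No list of metabolic genes had more than 1 member called. None of 16 regulators of mitochondrial growth, 24 genes of fatty acid use, 67 subunits of oxidative phosphorylation or 19 enzymes of the citric acid cycle was called, and the medians were -0.013, 0.098, 0.005 and -0.026. Ppargc1a, the coactivator PGC-1alpha, was at 9.42 to 9.93 (median 9.72) at rest and at 9.48 to 10.12 (median 9.60) after the run, with a change of -0.01 ± 0.14 and a 95% interval of -0.28 to 0.27. It was named as a textbook exercise gene after its values were seen. Ppargc1b changed by 0.23 ± 0.08 (adjusted p = 0.233), Ucp2, a mitochondrial carrier, by 0.62 ± 0.21 (adjusted p = 0.173) and Pnpla2, the main triglyceride lipase, by 0.30 ± 0.09 (adjusted p = 0.107). Pkm, the pyruvate kinase of muscle, was the sole gene called among 21 of glucose use and rose, from 10.83 to 11.07 (median 10.92) at rest to 11.19 to 11.32 (median 11.21) after the run, by 0.30 ± 0.07 (adjusted p = 0.0298). That call was lost in 6 of the 12 left-out fits, with an adjusted p of up to 0.0877.

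**Figure D2:**
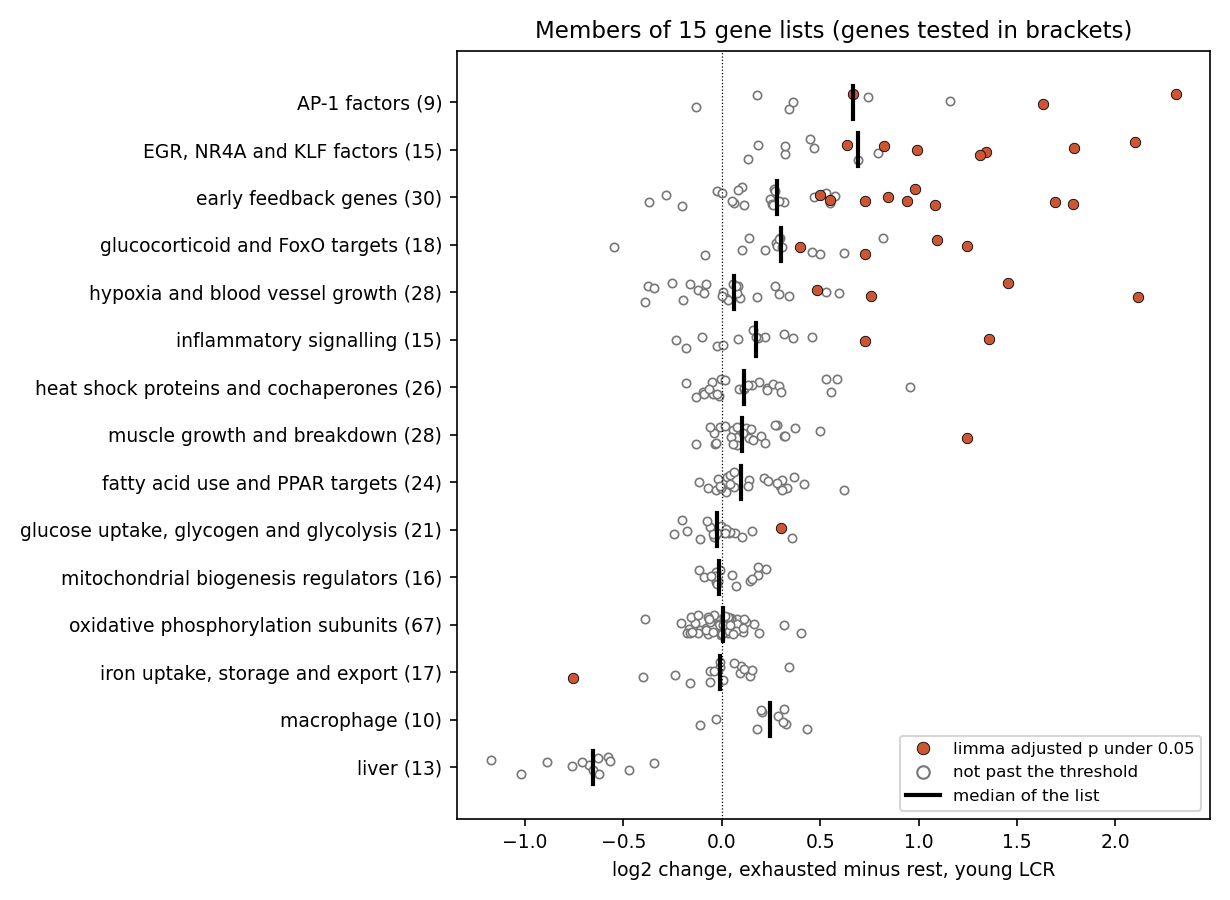
Each row is a gene list with the number of its genes tested, each point a gene placed by its log2 change between exhausted and rested young LCR muscle, filled where the limma adjusted p was below 0.05, and each vertical bar the median of the list. The lists were chosen with earlier results of these data known, and the rows were ordered by hand, early gene lists first. Filled points lie mostly in the upper rows, beside 0.795% of all genes tested called higher and 0.146% lower. AP-1 factors had a median of 0.67 and EGR, NR4A and KLF factors of 0.69. Mitochondrial lists sit around 0, and liver markers lie to the left with none filled.

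Among the other lists, growth and breakdown of muscle had 1 of 28 members higher, Ddit4, and cytosolic ribosomal proteins 1 of 87, Rpl36l5, a copy of a ribosomal protein gene, at 0.74 ± 0.17 (adjusted p = 0.0226; lost in 4 of the 12 left-out fits, up to 0.0646). Probe sets of such copies may share signal with the parent gene. Rplp2, a cytosolic ribosomal protein that this list did not hold, was also called higher, by 0.26. Its call was kept in 2 of the 12 left-out fits. No member was called among 15 genes of calcium and ion handling, 21 of metallothioneins and redox defence, 24 of extracellular matrix, 31 proteasome subunits or 16 myogenic regulators and denervation genes. Sod3, the extracellular superoxide dismutase, changed by 0.31 ± 0.11 (adjusted p = 0.221). Outside the lists, S1pr1, the endothelial receptor for sphingosine-1-phosphate, was picked after its values were seen for its small error: it was at 7.53 to 8.03 (median 7.69) at rest and at 8.31 to 8.60 (median 8.54) after the run. It rose by 0.74 ± 0.12 (adjusted p = 0.000406) and kept its call in all 12 left-out fits.

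The 14 genes that fell were of several kinds and changed less. Tfrc, the transferrin receptor through which cells take up iron, was at 9.68 to 9.98 (median 9.85) at rest and at 8.90 to 9.51 (median 9.04) after the run. It fell by 0.75 ± 0.16 on the log2 scale (SE, 95% interval -1.07 to -0.44; limma adjusted p = 0.00685) with no overlap, and exhausted replicate 5, at 9.51, lay closest to rest. It was the sole gene called among 17 of iron uptake, storage and export. Lpar6, a receptor for lysophosphatidic acid, was at 7.46 to 8.25 (median 8.01) and at 6.93 to 7.47 (median 7.19), with the lowest rest and the highest exhausted array level with each other. It fell by 0.70 ± 0.17 (adjusted p = 0.0298), a call lost in 7 of the 12 left-out fits (up to 0.1).

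Hacd1, an enzyme of very long chain fatty acid synthesis that muscle needs for its membranes, was at 9.92 to 10.09 (median 9.98) at rest and at 9.12 to 9.70 (median 9.57) after the run. It fell by 0.49 ± 0.13 (adjusted p = 0.0442) and was the sole gene called among 17 of lipid synthesis. Its groups did not overlap, yet 10 of the 12 left-out fits lost the call (up to 0.153). Ssbp1, which binds single-stranded mitochondrial DNA, was at 8.85 to 9.05 (median 8.89) and at 8.30 to 8.76 (median 8.61). It fell by 0.35 ± 0.08 (adjusted p = 0.00936) and kept its call in all 12, but not in a fit of the 12 young LCR arrays alone.

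The remaining falls were between 0.25 and 0.52. Mmadhc, which sorts vitamin B12 inside cells, fell by 0.31 ± 0.07 (adjusted p = 0.0123), Apoo, part of the complex that shapes the folds of the inner mitochondrial membrane, by 0.29 ± 0.07 (adjusted p = 0.0354) and Immp1l, a peptidase of that membrane, by 0.25 ± 0.06 (adjusted p = 0.0442). Nudt13, a hydrolase of the Nudix family, fell by 0.39 ± 0.09 (adjusted p = 0.0219), Tmem19, a membrane protein, by 0.45 ± 0.11 (adjusted p = 0.0242) and Mettl24, of the methyltransferase-like family, by 0.49 ± 0.13 (adjusted p = 0.0427). Enpp4, an ectoenzyme that splits nucleotides, fell by 0.27 ± 0.07 (adjusted p = 0.0457) and Setsip by 0.28 ± 0.07 (adjusted p = 0.0415). In each of these 8 genes all 6 exhausted arrays were below the mean at rest. Of the 12 left-out fits, Mmadhc lost its call in 3, Nudt13 and Tmem19 in 4 each, Apoo and Mettl24 in 8 each, Setsip in 9 and Immp1l and Enpp4 in 10 each. Mterf1-ps1, named like a pseudogene and so outside the rule for names, fell by 0.52 ± 0.09 (adjusted p = 0.00114) and, with Tfrc and Ssbp1, was among the 3 of 14 falls called in all 12 left-out fits.

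C8g, a chain of complement component C8, fell by 0.39 ± 0.10 (adjusted p = 0.0298; lost in 6 of the 12 left-out fits, up to 0.0982), from 7.53 to 7.82 (median 7.65) at rest to 7.13 to 7.41 (median 7.26) after the run. Liver markers moved the same way as a set without passing: all 13 had changes below 0, with a median of -0.65, or -0.36 without rest replicate 5, none was called, and their mean per array was 3.87 to 6.61 at rest and 3.82 to 5.18 after the run. Alb, the albumin gene, changed by -1.02 ± 1.10, with rest arrays from 4.30 to 11.03 and exhausted arrays from 4.37 to 9.76. The part of these mRNAs in the value of C8g was not tested.

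**Figure D3:**
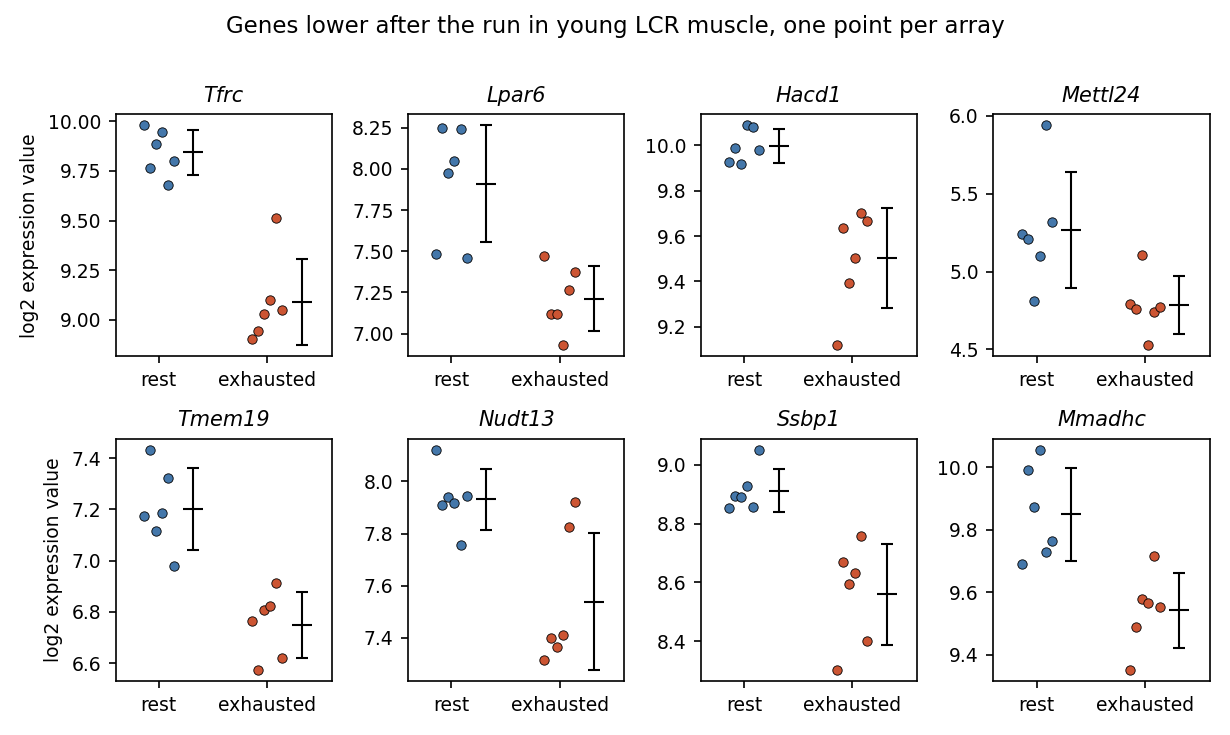
Panels show 8 of the 14 genes that fell in young LCR muscle, with the log2 expression value on the vertical axis (scales differ), 1 point per array (6 at rest in blue, 6 exhausted in red) and the mean with its SD beside the points. The groups do not overlap in Tfrc, Hacd1, Tmem19 and Ssbp1, and exhausted values of Nudt13 split into 4 low and 2 near the rest level.

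In 10 of the 15 genes with the largest rises the SD was greater at rest than after the run, for Egr1 at 0.997 against 0.475 and for Apold1 at 1.05 against 0.382. Among the 15, rest replicate 4 was the highest rest array in 8 and rest replicate 1 in 5, and rest replicates 2 and 5 were the lowest in 6 each. The mean over the 15 was 7.21 and 6.94 in replicates 4 and 1 and 6.16 and 6.15 in replicates 2 and 5. Of the exhausted arrays replicate 2 was the highest in 9 of the 15, and replicate 4 the lowest in 8, with means over the 15 of 8.51 and 7.80. The rest arrays therefore carried unequal levels of the same genes, with Egr1 at 8.62 and Ccn1 at 9.30 in rest replicate 4.

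Exhausted replicate 1 had a profile of its own. In 9 of 16 myogenic regulators and denervation genes, 8 of 10 macrophage markers and 13 of 24 genes of extracellular matrix, it was the highest of the 12 young LCR arrays. Other arrays stood at the low end of these lists: exhausted replicate 4 was the lowest in 13 of the 24 matrix genes. Rest replicate 6 was the lowest in 5 of the 10 macrophage markers. How often each array was the highest over all genes was not counted. Ankrd1, a stretch-responsive protein of the sarcomere, measured 11.49 on exhausted replicate 1 and 5.61 to 7.08 on the other 11. Gadd45a, a stress gene that rises in denervated muscle, measured 9.90 against 7.55 to 8.08. In old LCR muscle at rest the same genes had means of 9.48 and 10.07, while on young LCR rest arrays they averaged 6.58 and 7.85. Without this array their young LCR changes went from 0.72 and 0.26 to -0.12 and -0.10, none past the threshold. Both genes were chosen after their values were seen. The mean over the denervation list was 8.46 on exhausted replicate 1 and 7.25 to 7.69 on the other 11.

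**Figure D4:**
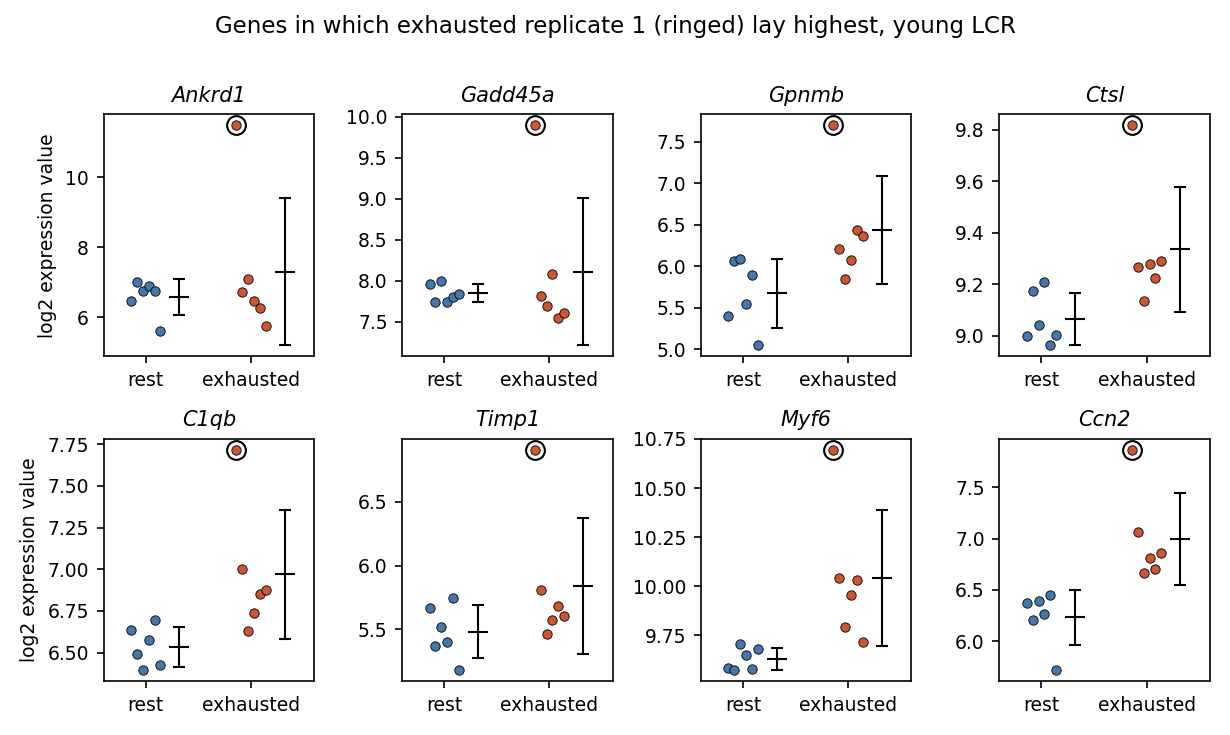
Panels show 8 genes chosen after their values were seen, with the log2 expression value on the vertical axis (scales differ), 1 point per array (6 young LCR rest in blue, 6 exhausted in red, exhausted replicate 1 ringed) and the mean with its SD beside the points. The ringed array is the highest of the 12 in every panel, at 11.49 for Ankrd1 and 9.90 for Gadd45a.

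Among the 15 largest rises exhausted replicate 1 was the highest exhausted array in 1 and the lowest in 3. Without it 3 of 9 AP-1 genes and 8 of 15 genes of the EGR, NR4A and KLF list were higher, against 3 and 7 with it, and the list medians were 0.70 and 0.71. The feedback list had 8 members higher against 9 with it, and the vessel list 2 against 4. Without this array 7 named rises and 7 named falls lost their call. Besides Ccn2 these were the rises of Ddit4 at 1.09 (adjusted p = 0.0661), Per1 at 1.08 (0.056), Arrdc3 at 0.73 (0.0528), Adamts1 at 0.48 (0.076), Zfp36l1 at 0.47 (0.0635) and Pkm at 0.30 (0.056). The falls were those of Mettl24 at -0.49 (0.0765), Hacd1 at -0.42 (0.153), Nudt13 at -0.35 (0.076), Mmadhc at -0.27 (0.0562), Immp1l at -0.24 (0.095), Setsip at -0.24 (0.142) and Apoo at -0.20 (0.153), the last with this array at 8.88 and the other exhausted arrays at 9.38 to 9.49.

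Young HCR rats, run to exhaustion in the same design, had 461 genes higher (4.82%) and 369 lower (3.86%) by the same limma model. Of the 76 rises in young LCR 63 were also called higher in young HCR, which is 82.9% of the young LCR calls and 13.7% of the young HCR calls, and 75 of the 76 had the same sign. Of the 14 falls 8 were also called lower there, 57.1% of the one and 2.17% of the other. No array is shared between these comparisons. The labels give neither the distance nor the duration of the runs in either line.

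A test of the difference itself called 8 genes whose response was higher in young LCR than in young HCR (0.0837%) and 26 in which it was lower (0.272%). Their sum of 34 became 15 or 22 without young HCR exhausted replicate 2 or 5, 16 without young HCR rest replicate 6, and 21 or 20 without young LCR exhausted replicate 3 or 5. Coq10b, which handles coenzyme Q in mitochondria, changed by 0.82 ± 0.22 in young LCR and by 2.95 ± 0.22 in young HCR, a difference of -2.13 ± 0.32 (adjusted p = 0.000252). Its 6 exhausted young LCR arrays, at 6.72 to 6.98, still lay above all rest arrays, at 5.62 to 6.41. Maff changed by 0.36 ± 0.23 against 2.37 ± 0.23, a difference of -2.01 ± 0.33 (adjusted p = 0.000469). Hes1 rose in both lines, by 0.82 and 2.28, and the difference was -1.46 ± 0.22 (adjusted p = 0.000292). Adamts9, a matrix protease, changed by 0.29 against 1.97 (difference -1.68 ± 0.26, adjusted p = 0.000294) and Irs2 by 0.50 against 2.10 (difference -1.60 ± 0.27, adjusted p = 0.000778).

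The glucocorticoid and FoxO list had 5 of its 18 members with a lower response in young LCR and none with a higher one. Arrdc3 rose by 0.73 in young LCR and by 1.80 in young HCR (difference -1.07 ± 0.25, adjusted p = 0.0324), and Klf15 by 0.40 against 1.09 (difference -0.69 ± 0.14, adjusted p = 0.0136). Ddit4, at 1.24 against 2.51, did not pass the test of the difference (-1.26 ± 0.40, adjusted p = 0.232). The median change of the list was 0.30 in young LCR and 0.90 in young HCR. Junb differed by -1.54 ± 0.36 (adjusted p = 0.0395), Ppp1r15a by -0.87 ± 0.19 (adjusted p = 0.0257) and Tgif1, a repressor in TGF-beta signalling, by -0.98 ± 0.23 (adjusted p = 0.0395). Nr4a2, with 1.79 against 3.64, differed by -1.85 ± 0.49 (adjusted p = 0.0829). Leaving out each of the 24 young arrays in turn, the difference of Junb lost its call in 15 fits (adjusted p up to 0.0973), that of Tgif1 in 14, of Arrdc3 in 9 and of Ppp1r15a in 5, while those of Coq10b, Maff, Hes1, Adamts9, Irs2 and Klf15 kept theirs in all 24. The difference of Trim63, at -0.71 (adjusted p = 0.0466), was lost in 18 of them (up to 0.122).

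For Fos, Apold1, Egr1 and Ccn1 no difference between the lines passed the threshold. Fos changed by 2.31 in young LCR and by 2.57 in young HCR, with a difference of -0.27 ± 0.62 (95% interval -1.52 to 0.99), and Apold1 by 2.12 and 2.30 (-0.19 ± 0.49; -1.17 to 0.79). Egr1 changed by 2.10 against 1.48 (0.62 ± 0.55; -0.48 to 1.72) and Ccn1 by 1.45 against 0.31 (1.15 ± 0.41; 0.32 to 1.97, adjusted p = 0.371). These intervals are wide, and a p that misses the threshold does not show equal responses.

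On the other side, Aplnr, the apelin receptor of endothelium, changed by -0.39 ± 0.19 in young LCR and by -1.79 ± 0.19 in young HCR, a difference of 1.40 ± 0.26 (adjusted p = 0.00441). Lpar6 fell in both lines, by 0.70 and 1.80, and the difference was 1.10 ± 0.24 (adjusted p = 0.0221); it lost its call without young HCR rest replicate 6 or young LCR rest replicate 1 (adjusted p up to 0.0618). Trib2, a pseudokinase, changed by -0.19 against -1.20 (difference 1.01 ± 0.23, adjusted p = 0.0258; lost in 7 of the 24 fits, up to 0.0783) and Rnf125, a ubiquitin ligase, by -0.07 against -0.85 (difference 0.78 ± 0.13, adjusted p = 0.000778). Gvinp1 changed by 0.36 against -0.81 (difference 1.17 ± 0.24, adjusted p = 0.0112). Its young LCR rest arrays, at 3.722 to 4.585, lay around the 4.54 of the filter on dim genes. The young LCR changes of Aplnr, Trib2, Rnf125 and Gvinp1 did not themselves pass the threshold.

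**Figure D5:**
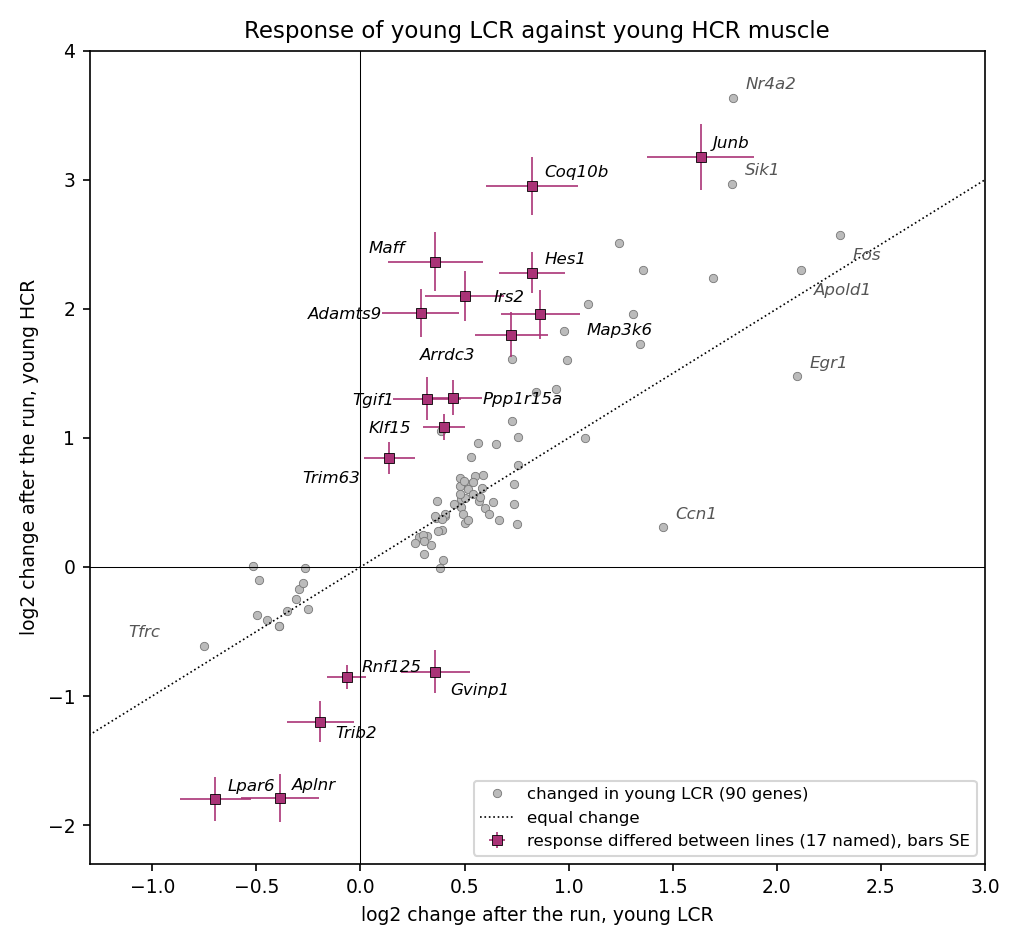
Each point is a gene placed by its log2 change after the run in young LCR (horizontal) and in young HCR (vertical): grey circles are the 90 genes called in young LCR, squares the 17 named genes whose response differed between the lines, with SE bars, and the dotted line marks equal change. Coq10b, Maff, Hes1, Irs2 and Adamts9 lie far above the line and Aplnr and Lpar6 below it, while Fos and Apold1 lie close to it.

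Old LCR rats had 70 genes higher (0.732%) and 134 lower (1.4%) after the run. Of the 76 rises in young LCR 16 were called higher in old LCR, 21.1% of the young and 22.9% of the old calls, and 67 had the same sign. None of the 14 falls was called lower in old LCR, where 10 had the same sign. The test of the difference by age, given below, called 2 of the 76 rises and 2 of the 14 falls. A call missing in old LCR is thus not in itself a difference by age. Fos rose by 1.84 ± 0.44 in old LCR (adjusted p = 0.014), Egr1 by 2.01 ± 0.39 and Apold1 by 1.91 ± 0.34, beside 2.31, 2.10 and 2.12 in young LCR. Errfi1, by contrast, changed by 0.05 ± 0.19 in old LCR and by 0.98 in young LCR, but the difference, 0.93 ± 0.27, did not pass (adjusted p = 0.123).

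The difference between young and old LCR was called in 28 genes with a higher response in young (0.293%) and 11 with a lower one (0.115%). In each of the 9 genes named for a higher response in young than in old LCR, the rest mean was lower in young than in old LCR, a difference not tested here. The same rest means enter the difference by which these genes were chosen, so this pattern is in part set by that choice. Gpnmb, a glycoprotein of macrophages and of lysosomal stress, changed by 0.76 ± 0.49 in young LCR, from 5.05 to 6.09 (median 5.72) at rest to 5.84 to 7.70 (median 6.28). In old LCR it changed by -2.76 ± 0.49 from a rest mean of 9.21 (difference 3.52 ± 0.69, adjusted p = 0.0104). Mt2A, a metallothionein, changed by 0.99 ± 0.39 against -1.89 ± 0.39 (difference 2.88 ± 0.54, adjusted p = 0.0101), with rest means of 4.47 in young and 6.51 in old LCR. Pvr, an adhesion receptor, Relt, of the TNF receptor family, and Ctsl, a lysosomal protease, differed by 1.56 ± 0.29, 1.19 ± 0.21 and 1.07 ± 0.21 (adjusted p = 0.0101 each).

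Of the young LCR calls, Tfrc was among the genes that differed by age: it fell by 0.75 in young LCR and changed by 0.15 ± 0.16 in old LCR (difference -0.90 ± 0.22, adjusted p = 0.0486), with rest means of 9.84 in young and 8.28 in old animals. Myf6, a myogenic factor of mature fibres, changed by 0.41 against -0.37 (difference 0.78 ± 0.18, adjusted p = 0.034). Tgif1 changed by 0.32 against -0.70 (difference 1.02 ± 0.23, adjusted p = 0.034). Lower in young were the responses of Tekt1, a tektin of cilia (-0.60 against 1.0; difference -1.60 ± 0.30, adjusted p = 0.0101), and of Angpt1, a ligand that stabilises vessels (-0.25 against 0.28; difference -0.54 ± 0.12, adjusted p = 0.0351). Its relative in signalling, the endothelial receptor Tie1, differed by -0.61 ± 0.15 (adjusted p = 0.0428). Sema7a, a semaphorin, Plcl2, a phospholipase C-like protein, and C1h19orf18 differed by -0.83, -0.63 and -0.78. Leaving out each of the 24 LCR arrays in turn, the difference of Tfrc lost its call in 22 fits (adjusted p up to 0.113) and that of Tie1 in 17 (up to 0.112). Those of Sema7a and C1h19orf18 were lost in 16 each (up to 0.103), that of Angpt1 in 14, those of Myf6 and Tgif1 in 10 each and that of Plcl2 in 9, while those of Gpnmb, Mt2A, Ctsl, Pvr, Relt and Tekt1 kept theirs in all 24. Without young LCR exhausted replicate 1 alone, 10 of the 17 named genes lost the difference. The number of genes with an age difference, 39, became 9 without young LCR exhausted replicate 1, 145 without old LCR rest replicate 3 and 63 without old LCR rest replicate 4. It was 11 to 25 with any single one of 11 other LCR arrays left out, and 2 in a fit of the 4 LCR young and old groups alone. That fit lost the differences of Gpnmb, Mt2A, Ctsl, Relt and Tekt1 and kept that of Pvr.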

How the data were processed

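RNA of the extensor digitorum longus of 48 rats was hybridised to Affymetrix Rat Gene ST 2.1 arrays, 6 in each of 8 groups by line, age and run. The values are log2 summaries of 36685 probe sets as deposited by the authors in the value table. RMA and oligo are named per the submitters' processing notes and Expression Console in the series' design text, and which of them was applied was not given in the sources used here. Scanner files were not used here, so signal over background is unknown, and the number of arrays limits the precision.

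Platform annotation named exactly 1 gene for 14824 probe sets, several for 829 and none for 21032. Symbols were matched to RefSeq by gene ID for 14670 and by symbol for 89, and 65 kept the platform's name. The brightest probe set stood for a gene (14557 genes, 234 with more than 1). The 9558 genes above 4.54, the median of all values, on at least 6 arrays were tested and 4999 were not. Junb, Ptgs2 and Map3k6, all called higher, had young LCR rest medians below this level, at 4.43, 4.46 and 4.47.

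limma 3.58.1 in R 4.3.3 fitted 1 mean per group over all 48 arrays (40 residual and 3.77 prior degrees of freedom), with Benjamini-Hochberg adjustment over the 9558 genes at 0.05. A fold is 2 to the power of the log2 change. The model was tested on simulated data. Where nothing says otherwise, left-out fits drop 1 of the 12 young LCR arrays. The titles give animal numbers, none on more than 1 array, and no batch, and replicate numbers follow accession order. Their agreement within groups was checked by correlation, and no arrays were merged.

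Named were the 15 largest rises and falls, leaving out predicted and unnamed genes, then up to 6 called members of each gene list or else its 2 members of smallest p, all AP-1 and EGR, NR4A and KLF factors, and up to 5 genes per direction for each difference of responses. The gene lists and named genes were chosen with earlier results of these data known. Promoters came from RefSeq's GRCr8 table. The analysis used Python 3.11.15 with pandas 2.3.3 and matplotlib 3.10.9. The alternatives were quantile normalization or median centring on top, no filter or a stricter one at 6.52 on the log2 scale, the compared groups alone, array weights, trended robust moderation, the mean of a gene's probe sets and leaving out arrays.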

Additional observations from a re-analysis of the deposited data

Results flagged for a closer look

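In the young LCR groups of 6 arrays, 34 of 360 sets of values (9.44%) had 1 array far from its nearest neighbour by Dixon's criterion for a single outlying value, where chance gives about 1 in 20. Exhausted replicate 1 held 16 of the 34, and rest replicate 6 held 7. Some genes, Ankrd1 and Gadd45a among them, were named after their values were seen, so these counts are in part set by that choice. Over the genes named by rule and the list means alone, 31 of 316 were so marked, 14 of them on exhausted replicate 1. All values are on the log2 scale. High on exhausted replicate 1 were Ankrd1 at 11.486 (5.756 to 7.082 on the other 5 exhausted arrays), Gadd45a at 9.899 (7.547 to 8.083), Gpnmb at 7.703 (5.843 to 6.443), Klf5 at 8.581 (7.085 to 7.54) and Timp1, an inhibitor of matrix proteases, at 6.91 (5.458 to 5.808). So were Il18 at 5.162, C1qb, a complement chain of macrophages, at 7.716, Ccn2 at 7.863, Ctsl at 9.819 and Myf6 at 10.695. The mean of the myogenic regulators and denervation genes was 8.462 there and 7.276 to 7.591 on the others. Low on the same array were Abcc9, a subunit of a potassium channel, at 10.203, Aplnr at 5.965, Apoo at 8.877 and Psmb4, a proteasome subunit, at 8.05, and the mean of the genes of glucose use was 10.32.

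Rest replicate 6 was low in Ccn2 at 5.72, Enpp4 at 6.919, Gvinp1 at 3.722 and Immp1l at 9.224, high in Setsip at 9.17 and Ssbp1 at 9.051, and had a mean of slow fibre markers of 7.939 against 8.816 to 9.308 on the other rest arrays. Rest replicate 1 was low in Abcc9 at 10.678 and high in Psmb7, another proteasome subunit, at 10.458, and rest replicate 4 was high in Sdhc, a subunit of complex II, at 11.177. Exhausted replicate 5 was high in Tfrc at 9.511, in the globin gene Hbb-b1 at 7.884 and in the mean of red blood cell markers at 7.25. Exhausted replicate 4 was low in Ccn1 at 8.575 and high in Tie1 at 6.677. Exhausted replicate 2 was high in Angpt1 at 8.834, replicate 3 low in Amotl2 at 6.739 and replicate 6 low in Tekt1 at 3.659.

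The test of the difference of responses singled out 17 of the genes named here between young LCR and young HCR. The response was lower in young LCR for Coq10b (-2.13), Maff (-2.01), Adamts9 (-1.68), Irs2 (-1.60), Junb (-1.54), Hes1 (-1.46), Map3k6 (-1.09), Arrdc3 (-1.07), Tgif1 (-0.98), Ppp1r15a (-0.87), Trim63 (-0.71) and Klf15 (-0.69). With 1 of the 24 young arrays left out, the difference of Map3k6 was lost in 19 fits and that of Trim63 in 18 (limma adjusted p up to 0.125 and 0.122). It was higher for Aplnr (1.40), Gvinp1 (1.17), Lpar6 (1.10), Trib2 (1.01) and Rnf125 (0.78).

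Between young and old LCR 17 of the named genes differed. The response was higher in young LCR for Gpnmb (3.52), Mt2A (2.88), Pvr (1.56), Relt (1.19), Ctsl (1.07), Tgif1 (1.02), Zfp36l1 (0.82), Trim63 (0.81) and Myf6 (0.78). It was lower for Tekt1 (-1.60), Tfrc (-0.90), Sema7a (-0.83), C1h19orf18 (-0.78), Plcl2 (-0.63), Tie1 (-0.61), Mterf1-ps1 (-0.61) and Angpt1 (-0.54).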

How the results depend on the processing

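No paired analysis was possible because the labels give no replicate numbers and no animal number is on more than 1 array. The 76 rises numbered 36 when only the groups compared were fitted and 131 with array quality weights, and 37 to 122 with 1 young LCR array left out. The 14 falls numbered 26 after quantile normalization, 8 with no filter on dim genes, 26 with a stricter one, 5 with only the groups compared, 55 with array weights, 31 without the 3 arrays of lowest weight (an alternative added after seeing the data, none of them young LCR) and 4 to 19 with 1 array left out. The 34 differences between young LCR and young HCR became 70 with array weights and 15 to 51 with 1 of the 24 arrays left out. The 39 differences between young and old LCR became 17 with no filter, 68 with the stricter filter, 2 with only the groups compared, 112 with array weights, 74 without the 3 arrays of lowest weight and 9 to 145 with 1 array left out. Leaving out HCR and old LCR arrays was also added after seeing the data. The other settings kept each of these counts within 1.5 times. The 3 arrays of lowest weight were old LCR rest replicate 2 (0.323), old HCR exhausted replicate 1 (0.36) and young HCR exhausted replicate 1 (0.402). Without these 3 the differences of Junb and Map3k6 between young LCR and young HCR lost their call. So did those of Tfrc and Tie1 between young and old LCR.

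Quantile normalization and median centring gave a median change over all genes of -0.015 and -0.008. Over 159 results on named genes the alternatives gave 3723 values: 3213 kept direction and side of the threshold, 464 lost a call, 32 gained one and 14 turned the sign of a change that was not called. These 14 were of 5 genes. Klf5 changed by -0.002 with array weights and by -0.080 to 0.219 with an array left out. With an array left out Ncf1 ranged from -0.166 to 0.020, Ppargc1a from -0.092 to 0.038, Ankrd1 from -0.117 to 1.03 and Gadd45a from -0.099 to 0.372. For Klf5, Ankrd1 and Gadd45a the lowest value was without exhausted replicate 1. The cause was not tested for any of these. Limits are 6 arrays a group, a single muscle, a time of sampling that the labels do not state, whole tissue, and no probe-level signal.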

Other observations

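Several rises outside the gene lists were of regulators of the actin skeleton and of translation. They were chosen after their values were seen, and no theme among them was tested. Zyx, a focal adhesion protein that gathers at strained actin fibres, was at 6.53 to 6.90 at rest and at 7.15 to 7.34 after the run and rose by 0.50 ± 0.13 (limma adjusted p = 0.0365). Amotl2, a partner of YAP at cell junctions, rose by 0.60 ± 0.14 (adjusted p = 0.0171), Rhoc, a small GTPase of the cell cortex, by 0.54 ± 0.14 (adjusted p = 0.0442) and Diaph1, a formin that extends actin filaments, by 0.40 ± 0.10 (adjusted p = 0.0325). The groups did not overlap in Zyx, Amotl2 and Rhoc and overlapped in Diaph1. With 1 of the 12 arrays left out, the call of Zyx was kept in 2 fits, that of Rhoc in 3, that of Diaph1 in 6 and that of Amotl2 in 9. Without exhausted replicate 1 Zyx, Rhoc and Diaph1 changed by 0.48, 0.46 and 0.30 (adjusted p = 0.0891, 0.153 and 0.15).

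Larp1, which binds mRNAs of ribosomal proteins, was at 9.88 to 10.20 and at 10.25 to 10.49 and rose by 0.32 ± 0.06 (adjusted p = 0.00112). Zfp598, a ubiquitin ligase that senses collided ribosomes, rose by 0.54 ± 0.10 (adjusted p = 0.00163), and Sgta, a co-chaperone, by 0.48 ± 0.09 (adjusted p = 0.00138). Mknk2, a kinase of the cap-binding factor eIF4E, rose by 0.45 ± 0.11 (adjusted p = 0.0276). None of these 4 had overlapping groups. The calls of Larp1, Zfp598 and Sgta were kept in all 12 left-out fits and that of Mknk2 in 5. A fit of the 12 young LCR arrays alone lost the calls of Larp1 and Mknk2. In old LCR muscle the 4 genes changed by 0.11, 0.14, 0.23 and -0.06, none past the threshold, and no difference by age passed (adjusted p = 0.273, 0.233, 0.473 and 0.134). Map3k6, a kinase of the stress-activated cascade, was at 4.34 to 4.95 at rest and at 5.23 to 5.72 after the run and rose by 0.86 ± 0.19 (adjusted p = 0.0108), a call kept in all 12 left-out fits.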
